A study of Oreochromis niloticus with 18 samples.

Results

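SNAP25 is the presynaptic SNARE protein that, together with syntaxin and synaptobrevin, draws a synaptic vesicle onto the plasma membrane and fuses the membranes when calcium enters the terminal. NSF, an ATPase, takes the spent SNARE complex apart, and SNAP23, a relative of SNAP25, serves vesicle fusion in many tissues outside the nervous system. The ancestor of teleosts duplicated its genome, and many neuronal genes are still present in these fish as pairs, as in the zebrafish with snap25a and snap25b.

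2 transcripts named SNAP25 were followed, of 26763 transcripts quantified in each library of the Nile tilapia (Oreochromis niloticus). They were taken by identifier, and both were measured in all 18 libraries. ENSONIT00000003702, called transcript 1 here, belongs to the gene ENSONIG00000002954, and ENSONIT00000001609, called transcript 2, belongs to ENSONIG00000001276, so they are products of separate genes and not splice forms of 1 gene. Their shared name comes from the study's list of hormone-responsive transcripts, where transcript 1 stands among the genes lower with T3 in the cerebellum and transcript 2 among those lower with hormone in the thalamus-pituitary. Which transcripts stand in that list with a name was therefore decided by these same libraries, and a lower value in those comparisons is not independent evidence. Other transcripts of this family may carry no symbol in that list.

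The libraries came from juvenile fish, aged 4 months by the labels, that were kept for 12 h in water with 25 nM T2 or 25 nM T3 or were left untreated as controls. T2 is a diiodothyronine that lacks the outer-ring iodine of T3 (triiodothyronine), the ligand of the nuclear thyroid hormone receptors. Cerebellum, thalamus-pituitary and liver were sampled, with 2 libraries per group, each brain library being a pool of 4 fish and each liver library coming from 1 fish. The effective counts added up to between 1568851 and 6585242 per library. Levels are given as CPM, a transcript's share of a library's counts after scaling by edgeR's TMM method over the 18 libraries. On this scale 1 count was worth 0.12 to 1.27 CPM.

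The tissue labels were checked with marker lists whose symbols come from the same hormone-responsive list. A list of 22 neuronal transcripts summed to between 1143 and 1728 CPM in the 12 brain libraries, against 68.2 to 271 CPM in the liver libraries. A list of 19 hepatocyte transcripts summed to between 19.2 and 41.1 CPM in the brain, against 48481 to 189414 CPM in the liver. 1 library stood apart. Thalamus-pituitary T2 replicate 1 held more of the transcripts that mark the cerebellum than the other 5 thalamus-pituitary libraries, and results of transcript 1 that rest on it are given with and without it.

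The first question was where each transcript is expressed. Transcript 1 was abundant in the cerebellum and scarce in the thalamus-pituitary, whereas transcript 2 was abundant in both regions. In the cerebellum transcript 1 had 1286 and 950 CPM with T2, 556 and 632 CPM with T3, and 816 and 1358 CPM in the controls. In the thalamus-pituitary it had 52.8 and 2.84 CPM with T2, 9.85 and 13.4 CPM with T3, and 4.68 and 7.22 CPM in the controls. The lowest cerebellar library was thus above the highest thalamus-pituitary library, and the regions did not overlap. The share of all transcripts without overlap was not counted, and 39.5% of the tested transcripts were called between the regions in the test given below.

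In the cerebellum transcript 2 had 940 and 769 CPM with T2, 586 and 656 CPM with T3, and 796 and 1043 CPM in the controls. In the thalamus-pituitary it had 1234 and 1131 CPM with T2, 974 and 883 CPM with T3, and 1296 and 1603 CPM in the controls. In this transcript the regions overlapped, although within each treatment both cerebellar libraries were below both thalamus-pituitary libraries. The share of all transcripts in such a position was not counted. By mean level, transcript 1 ranked 59 of 26763 transcripts in the cerebellum but 8263 in the thalamus-pituitary (11276 without T2 replicate 1), and transcript 2 ranked 78 in the cerebellum and 25 in the other region. These ranks are by counts and not per length, because lengths of the coding sequences were not in the files.

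**Figure D1:**
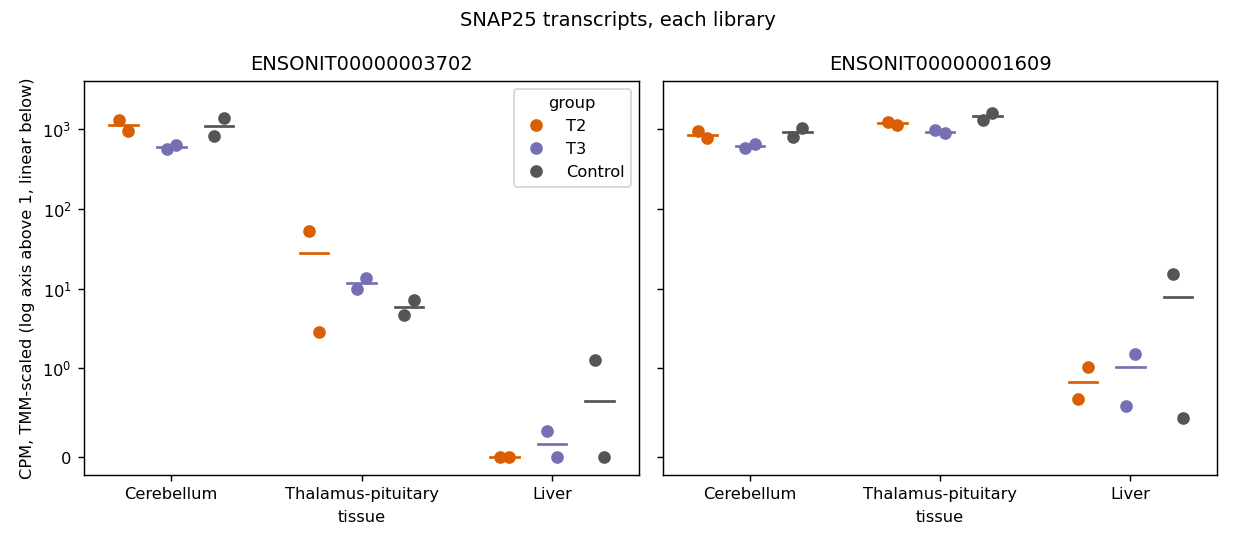
Level of each SNAP25 transcript in CPM (TMM-scaled, on an axis that is logarithmic above 1 and linear below) in each library by tissue and group. Points are libraries and short lines are the means of 2 libraries. Transcript 1 (ENSONIT00000003702) lies between 556 and 1358 CPM in the cerebellum and between 2.84 and 52.8 CPM in the thalamus-pituitary, and transcript 2 (ENSONIT00000001609) lies between 586 and 1603 CPM in both regions.

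Averaged over the 3 treatments, transcript 1 was 72.7-fold higher in the cerebellum than in the thalamus-pituitary (log2 difference 6.18 ± 0.52, SE, 95% interval 5.05 to 7.32, 18 libraries, adjusted p = 7.74e-07 by edgeR's quasi-likelihood test with Benjamini-Hochberg adjustment over all 19221 tested transcripts). Without thalamus-pituitary T2 replicate 1 the log2 difference was 7.28. In that comparison 39.5% of the tested transcripts passed the threshold of 0.05, so a difference between the regions is common in itself. By p, transcript 1 stood at position 930 of the 19221. A ranking by size was made only among the 6292 transcripts with at least 20 CPM in both cerebellar controls. There, by the ratio of the cerebellar to the thalamus-pituitary controls, transcript 1 stood at position 5 and transcript 2 at position 5776. That filter keeps transcripts expressed in the cerebellum, where transcript 1 is high, so the position does not hold for all transcripts.

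Transcript 2 was lower in the cerebellum, with a log2 difference of -0.56 ± 0.24 (SE, 95% interval -1.07 to -0.06), and did not pass the threshold in the same fit (adjusted p = 0.0734). The call changed with the libraries and the scaling in the fit. It was made with RLE size factors or the library total alone in place of TMM, with all libraries kept. In the liver libraries this transcript had few and uneven counts, and their part in the call was not tested. Without liver control replicate 1 the adjusted p was 0.000843, without liver control replicate 2 it was 0.000831, and in a fit of the 12 brain libraries alone, added after the data were seen, the difference was -0.59 ± 0.09 with an adjusted p of 0.00031. Leaving out each of the 18 libraries in turn gave adjusted p values between 0.000831 and 0.174.

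The balance of the transcripts within a library does not depend on how libraries are scaled. In the cerebellum transcript 1 made up 57.8% and 55.3% of the counts of both transcripts with T2, 48.7% and 49.1% with T3, and 50.6% and 56.6% in the controls. The exact (Clopper-Pearson) 95% intervals of these shares, which cover counting error only, reached at most from 47.4% to 59.1%. In the thalamus-pituitary the shares of transcript 1 were 4.11% and 0.25% with T2, 1% and 1.5% with T3, and 0.36% and 0.448% in the controls. Transcript 1 therefore gave about as many counts as transcript 2 in the cerebellum and nearly none of the SNAP25 counts in the thalamus-pituitary.

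The log2 ratio of transcript 1 to transcript 2 averaged 0.17 ± 0.23 over the cerebellar libraries and -6.94 ± 1.52 over those of the thalamus-pituitary (SD, n = 6 libraries each). The difference of 7.12 was larger than the spread between libraries (two-sided exact permutation test, p = 0.00216). That p is the smallest that 6 against 6 libraries can give. The test took libraries as independent and did not separate the treatments, although the pools of both regions in a treatment drew on the same treated fish. Without T2 replicate 1 the thalamus-pituitary averaged -7.42 ± 1.07 and the difference was 7.6. Summed over libraries, transcript 1 held 52.8% of 52069 SNAP25 counts in the cerebellum and 1.17% of 49885 counts in the thalamus-pituitary, or 0.596% of 41775 counts without T2 replicate 1. Equal counts are not equal numbers of molecules where lengths differ, but a change of the ratio between tissues does not depend on length.

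**Figure D2:**
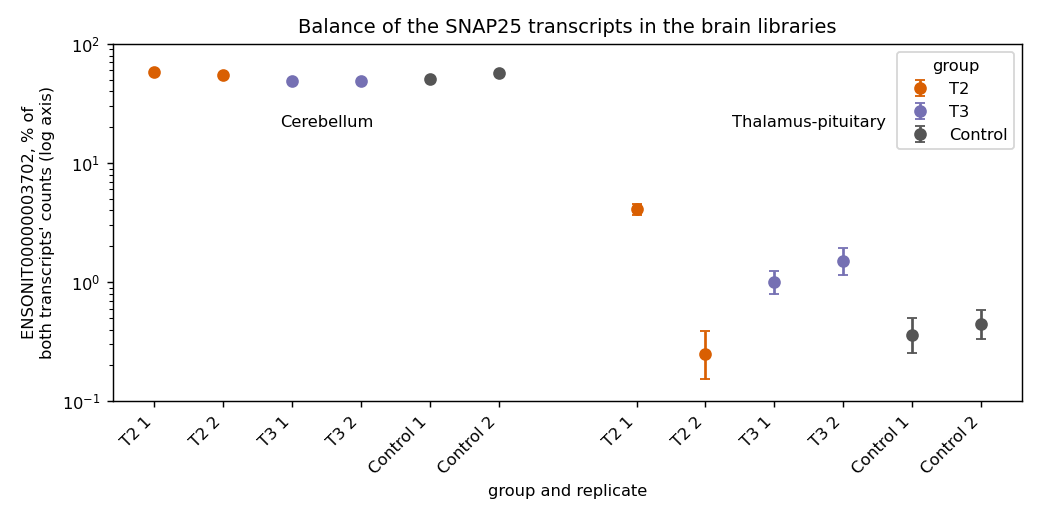
Share of transcript 1 (ENSONIT00000003702) in the summed counts of both SNAP25 transcripts, in percent on a logarithmic axis, in the 12 brain libraries. Points are single libraries and bars are exact 95% binomial intervals, which in the cerebellum are smaller than the points. The cerebellar libraries lie between 48.7% and 57.8% and the thalamus-pituitary libraries between 0.25% and 4.11%.

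The transcripts may share sequence, and the program that assigned the reads could divide shared reads between them. In thalamus-pituitary T2 replicate 2, 20 counts fell to transcript 1 beside 7972 to transcript 2, so that in this library no more than 0.25% of the SNAP25 counts could be reads of transcript 2 given to transcript 1. The opposite error, reads of transcript 1 given to transcript 2 in the cerebellum, has no such limit. In the cerebellum the transcripts added up to 2226 and 1719 CPM with T2, 1143 and 1287 CPM with T3, and 1612 and 2400 CPM in the controls. The sums were lower in the thalamus-pituitary for each group, with 1287 and 1134 CPM with T2, 984 and 896 CPM with T3, and 1300 and 1611 CPM in the controls. The sum differed by 0.52 ± 0.24 on the log2 scale between cerebellum and thalamus-pituitary and did not pass the threshold (adjusted p = 0.111).

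Both transcripts were at or near the detection limit in the liver. Transcript 1 had 0 counts in both T2 libraries, 1 and 0 counts in the T3 libraries, and 1 and 0 counts in the control libraries. Transcript 2 had 2 and 3 counts with T2, 2 and 5 counts with T3, and 12 and 1 counts in the controls. The library with 12 counts, control replicate 1, was also the shallowest of the liver, with a total of 2090615. A count of 0 in a library allows up to 3 counts, which was 0.87 to 3.8 CPM in the liver libraries.

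Against this floor transcript 1 was at least 627-fold higher in the cerebellum and at least 10.2-fold higher in the thalamus-pituitary than in the liver (means of 933, 15.1 and at most 1.49 CPM, the last being 3 counts per liver library). Without T2 replicate 1 the thalamus-pituitary mean of transcript 1 was 7.6 CPM and the bound 5.11-fold. Transcript 2 was 246-fold higher in the cerebellum and 366-fold higher in the thalamus-pituitary than the liver mean of 3.24 CPM, and 946-fold and 1407-fold higher without liver control replicate 1. Both transcripts passed the test of brain against liver (adjusted p = 6.37e-07 for transcript 1 and 1.73e-11 for transcript 2), as did 77.7% of the tested transcripts. The median log2 difference of all transcripts between brain and liver was 0.76 with TMM and 2.27 with the library total alone, and the difference of transcript 2 moved with it, being 9.13 with TMM and 10.7 with the library total.

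The balance could not be compared with that of the liver, since every liver library had at most 1 count of transcript 1. Summed over the 6 liver libraries, 2 of 27 SNAP25 counts were of transcript 1, which is 7.41% with an exact 95% interval of 0.91% to 24.3%. Neither transcript passed the low-count filter of the hormone comparisons in the liver, and no response to T2 or T3 was detectable there at this depth.

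In order, the group means of transcript 1 were 1118 CPM in the cerebellum with T2, 1087 CPM in the cerebellar controls and 594 CPM in the cerebellum with T3, followed by 27.8 CPM with T2, 11.6 CPM with T3 and 5.95 CPM in the controls of the thalamus-pituitary. The ranges of the first and second of these groups overlapped, as did those of T2 and T3 in the thalamus-pituitary. The T2 range there, 2.84 to 52.8 CPM, also held both controls. Without T2 replicate 1, T2 was left with 1 library at 2.84 CPM, below both controls, so the order in this region rests on that replicate. For transcript 2 the order was thalamus-pituitary control (1450 CPM), T2 (1182 CPM) and T3 (928 CPM), then cerebellar control (919 CPM), T2 (854 CPM) and T3 (621 CPM). Here T3 in the thalamus-pituitary overlapped with the cerebellar controls, and these overlapped with T2 in the cerebellum. The other neighbours among the brain groups did not overlap. Taken singly, both T2 libraries were below both controls of the thalamus-pituitary in 18.6% of the tested transcripts and above both T3 libraries there in 20.5%. In the cerebellum both T2 libraries were above both T3 libraries in 19%. The share of transcripts with either whole order was not counted.

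The second question was how the transcripts respond to each hormone. With T3, transcript 2 was lower in both brain regions and transcript 1 was lower in the cerebellum than in the controls, but no comparison of 2 libraries against 2 passed the threshold for either transcript in edgeR's quasi-likelihood test. In the cerebellum the T3 libraries of both transcripts, listed above, were below both control libraries. Transcript 1 had a log2 fold change of -0.87 ± 0.24 (SE, 95% interval -1.44 to -0.30, adjusted p = 0.36) and transcript 2 one of -0.57 ± 0.15 (SE, 95% interval -0.93 to -0.20, adjusted p = 0.351).

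In that comparison 0 of 15770 transcripts were called (0%) and 1703 had an unadjusted p under 0.05, as did both SNAP25 transcripts (0.00917 and 0.0084). Both T3 libraries were below both controls in 21.5% of all tested transcripts, so this position alone is frequent. DESeq2 called 92 transcripts, among them transcript 2 (adjusted p = 0.00849) but not transcript 1 (adjusted p = 0.199). The quasi-likelihood test on unfiltered counts called 101 as higher with T3, which was 52.1% of its calls. It called both SNAP25 transcripts (adjusted p = 0.0146 for transcript 1 and 0.0426 for transcript 2). The exact test of edgeR called neither, with adjusted p values of 0.069 for transcript 1 and 0.135 for transcript 2. On unfiltered counts the exact test gave 0.0954 and 0.193. Over all alternatives other than leaving out a library, the adjusted p ranged between 0.0146 and 0.407 for transcript 1 and between 0.00849 and 0.407 for transcript 2. Without control replicate 2 the values were nearest to 0, at -0.46 for transcript 1 and -0.36 for transcript 2.

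T2 left both transcripts near their control level in the cerebellum. The log2 fold change was 0.04 with a 95% interval of -0.61 to 0.69 for transcript 1 and -0.11 with an interval of -0.54 to 0.32 for transcript 2 (adjusted p = 0.996 and 0.989). 0 of 15271 transcripts were called in this comparison (0%), 758 had an unadjusted p under 0.05, and DESeq2 called 17. The T2 libraries lay within the range of the controls for transcript 1, and 1 of the T2 libraries was below both controls for transcript 2. These T2 intervals overlap with the T3 intervals of -1.44 to -0.30 for transcript 1 and -0.93 to -0.20 for transcript 2. Both sets of fits share the same controls.

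T2 and T3 were compared directly, at the same concentration and time, in 3 pairs of groups: the cerebellum, the thalamus-pituitary and both regions together. In the cerebellum transcript 1 was higher with T2 than with T3, with 1286 and 950 CPM against 556 and 632 CPM, a log2 difference of 0.91 ± 0.17 (SE, 95% interval 0.51 to 1.32). Transcript 2 was also higher with T2, by 0.46 ± 0.13 (SE, 95% interval 0.13 to 0.78). Both T2 libraries were above both T3 libraries in each transcript, as in 19% of all tested transcripts. Neither difference passed the threshold in the quasi-likelihood test (adjusted p = 0.547 and 0.689), which called 2 of 15680 transcripts (0.0128%).

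The call for transcript 1 changed with the test. The exact test of edgeR gave an adjusted p of 0.00219, DESeq2 gave 1.01e-05 and the quasi-likelihood test on unfiltered counts gave 0.00189, while the range over all alternatives was 1.01e-05 to 0.803. Transcript 1 made up 57.8% and 55.3% of the SNAP25 counts with T2 and 48.7% and 49.1% with T3. The control libraries differed from each other by nearly as much, at 50.6% and 56.6%. With 2 libraries against 2 an exact permutation test cannot go below p = 0.333, and the shares were not tested.

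In the thalamus-pituitary transcript 2 was lower with T3 than in the controls, with 974 and 883 CPM against 1296 and 1603 CPM. The log2 fold change was -0.63 ± 0.14 (SE, 95% interval -0.97 to -0.29, adjusted p = 0.473, unadjusted p = 0.00375). 1 of 16996 transcripts was called (0.00588%), 8.84% had an unadjusted p under 0.05, and both T3 libraries were below both controls in 22.3%. The exact test gave an adjusted p of 0.0426 and DESeq2 one of 0.00164, within a range of 0.00164 to 0.494 over the alternatives. With T2, transcript 2 had 1234 and 1131 CPM, also below both controls, as in 18.6% of the tested transcripts, and its log2 fold change was -0.29 with a 95% interval of -0.62 to 0.03 (adjusted p = 0.807). No transcript was called with T2 in this region (0% of 16788, with 1034 at an unadjusted p under 0.05 and 20 called by DESeq2).

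Between the hormones, transcript 2 in the thalamus-pituitary was 0.32 ± 0.09 higher with T2 than with T3 on the log2 scale (95% interval 0.12 to 0.53, adjusted p = 0.72). Both T2 libraries were above both T3 libraries, as in 20.5% of the tested transcripts, and 9 of 16623 transcripts were called (0.0541%). DESeq2 gave transcript 2 an adjusted p of 0.0445, at the low end of a range reaching 1. The T2 value of transcript 2 thus lay between those of T3 and the controls in this region, but its intervals against each reach close to or past 0.

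**Figure D3:**
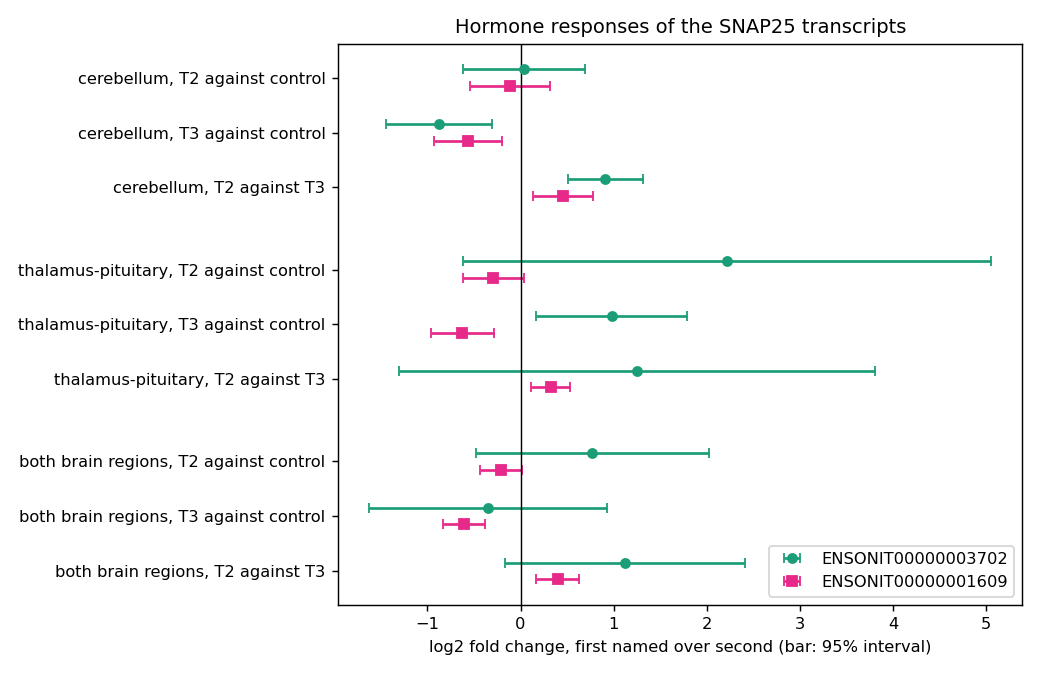
Log2 fold changes of transcript 1 (ENSONIT00000003702, circles) and transcript 2 (ENSONIT00000001609, squares) for T2 against control, T3 against control and T2 against T3 in the cerebellum, the thalamus-pituitary and both brain regions together. Bars are 95% intervals of edgeR's quasi-likelihood fit. The T3 responses of transcript 2 are -0.57, -0.63 and -0.61, and the intervals of transcript 1 are wide where thalamus-pituitary libraries enter the fit.

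Over both brain regions, with the region as a covariate and 4 libraries per treatment, transcript 2 fell with T3. By the study's methods the cerebellar and thalamus-pituitary pools of a treatment drew on the same treated fish, so these 4 libraries are not 4 independent samples, and whether same-numbered pools hold the same fish is not given in the sources used here. Its log2 fold change was -0.61 ± 0.10 (SE, 95% interval -0.83 to -0.38), or 0.657 times the control level, and passed the threshold (adjusted p = 0.0313). All 4 T3 libraries were below both controls of their own region. Taken singly, this position was held by 21.5% of the tested transcripts for the cerebellum and 22.3% for the thalamus-pituitary. The share of transcripts that held it for both regions at once was not counted. In the fit over both regions 171 of 18230 transcripts were called (0.938%), 109 of them lower with T3 and 36.3% higher. Transcript 2 stood at position 44 by p. With the library total alone 199 were called, of which 58.3% were higher with T3, and transcript 2 was at -0.57 (adjusted p = 0.0389). The sum of both transcripts gave -0.68 ± 0.13 (adjusted p = 0.0375).

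The call was close to the threshold. Leaving out each of the 12 libraries in turn gave fold changes between -0.69 and -0.53 and adjusted p values between 0.023 and 0.0907, and between 6 and 163 transcripts called. The call was lost without cerebellar control replicate 2 (adjusted p = 0.0845), cerebellar T3 replicate 1 (0.0907) or replicate 2 (0.0826), thalamus-pituitary control replicate 2 (0.07), and thalamus-pituitary T3 replicate 1 (0.0633) or replicate 2 (0.0816). It was also lost with the replicate number as a block (-0.60, adjusted p = 0.055). Over the other alternatives the adjusted p lay between 7.05e-06 and 0.0389.

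Transcript 2 with T2 was -0.21 ± 0.10 over both regions (95% interval -0.43 to 0.02, adjusted p = 0.605), where 6 of 18230 transcripts were called (0.0329%). T2 exceeded T3 by 0.40 ± 0.10 (95% interval 0.17 to 0.63, adjusted p = 0.35), and 0 transcripts were called (0%), with 1531 at an unadjusted p under 0.05. DESeq2 called 170 transcripts in that comparison, transcript 2 among them (adjusted p = 0.0382). A lower level with T3 than with T2 was thus seen in all 4 T3 libraries set against the T2 libraries of their region. Among the fits run over both regions, DESeq2 alone called this difference. Taken singly, the same position was held by 19% of the tested transcripts for the cerebellum and 20.5% for the thalamus-pituitary. The share that held it for both at once was not counted.

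Transcript 1 was not shown to have a common response over the regions, and its intervals were wide. Its log2 fold change over both was 0.77 with T2 (95% interval -0.48 to 2.02, adjusted p = 0.754), -0.35 with T3 (interval -1.62 to 0.92, adjusted p = 0.837) and 1.12 for T2 against T3 (interval -0.17 to 2.41, adjusted p = 0.649). Thalamus-pituitary T2 replicate 1 weighed on the values that involve T2, which were 0.0025 against the controls and 0.30 against T3 without it.

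In the thalamus-pituitary itself, transcript 1 with T3 had 9.85 and 13.4 CPM against 4.68 and 7.22 CPM in the controls, the opposite side from that in the cerebellum. The counts behind these levels were 82 and 59 with T3 and 37 and 51 in the controls. Both T3 libraries were above both controls, as in 18.9% of the tested transcripts, and the log2 fold change of 0.98 ± 0.33 (95% interval 0.17 to 1.78) did not pass the threshold (adjusted p = 0.527). With T2 the libraries were on either side of the controls at 52.8 and 2.84 CPM, and the log2 fold change of 2.22 (95% interval -0.62 to 5.05, adjusted p = 0.816) was -1.06 without T2 replicate 1 and 3.16 without T2 replicate 2. T2 against T3 gave 1.25 (95% interval -1.31 to 3.80, adjusted p = 0.914), and -2.05 without T2 replicate 1.

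The T3 responses of the regions were compared in an interaction fit of 8 libraries. For transcript 1 the response in the cerebellum minus that in the thalamus-pituitary was -1.83 ± 0.44 on the log2 scale (95% interval -2.83 to -0.82), with an unadjusted p of 0.00297 and an adjusted p of 1. Of 17771 transcripts, 0 were called (0%), 4.28% had an unadjusted p under 0.05 and DESeq2 called 7. For transcript 2 the difference was 0.06 with a 95% interval of -0.45 to 0.57 (adjusted p = 1), so that the T3 responses of transcript 2 in the regions were not shown to differ, and an unequal response by up to about the size of the response itself is within that interval. The T2 responses differed by -2.17 (interval -5.12 to 0.79) for transcript 1 and 0.19 (interval -0.37 to 0.76) for transcript 2, with 0 of 17804 transcripts called (0%), 659 at an unadjusted p under 0.05 and 3 called by DESeq2. Without thalamus-pituitary T2 replicate 1 the difference for transcript 1 was 1.09.

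The level of transcript 1 in the thalamus-pituitary was set beside that of other transcripts of the cerebellum. The 50 transcripts with the highest ratio of cerebellar to thalamus-pituitary controls, chosen from the 4 brain control libraries after the data were seen and without either SNAP25 transcript, include FAT2, a large cadherin known from cerebellar granule cells of rodents, and GRID2IP, a partner of the glutamate receptor of Purkinje cells. As a median over the list they reached 4.86% and 1.3% of their cerebellar control level with T2 in the thalamus-pituitary, 1.88% and 2.44% with T3, and 1.11% and 1.16% in the controls. Transcript 1 reached 4.86% and 0.261% with T2, 0.906% and 1.24% with T3, and 0.431% and 0.664% in the controls.

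Transcript 1 was below the median of this list in 5 of the 6 thalamus-pituitary libraries and, to the digits given, equal to it in T2 replicate 1. The 3 libraries with the highest share, T2 replicate 1, T3 replicate 2 and T3 replicate 1, were the same for both and in the same order. The list was chosen for low values in the thalamus-pituitary controls. By the ratio that chose it, transcript 1, which was left out, stood at position 5 of 6292. Its place below the list's median in the control libraries was therefore set by that choice. Cerebellar tissue in a thalamus-pituitary pool and expression of transcript 1 by thalamus-pituitary cells cannot be told apart in these libraries, and their part in the T2 and T3 values of transcript 1 was not tested. The 50 transcripts most enriched in the thalamus-pituitary controls, chosen in the same way, summed to 38.6% of their control mean in T2 replicate 1 and to between 78.2% and 119% in the other 5 thalamus-pituitary libraries. By its median this list did not set T2 replicate 1 apart, with 85.5% and 99.9% with T2, 85% and 78.6% with T3, and 97.7% and 102% in the controls.

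**Figure D4:**
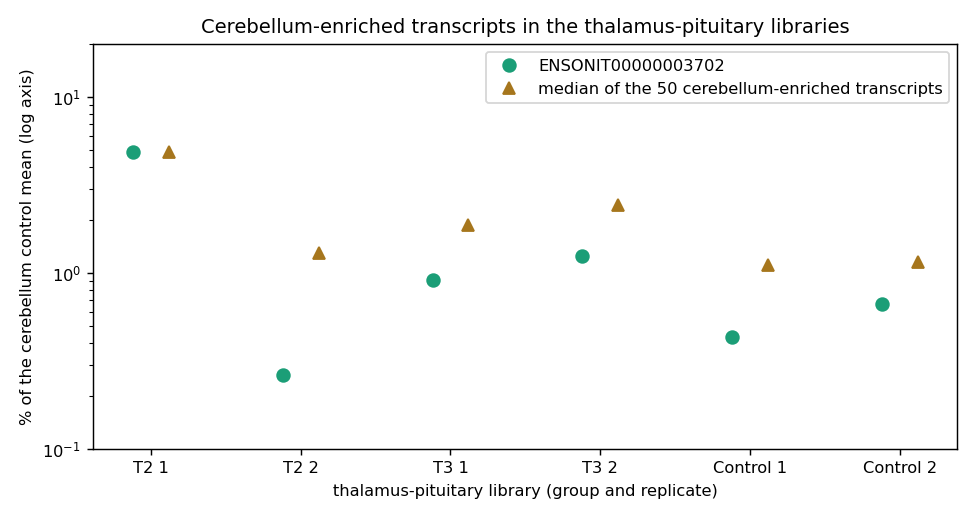
Level of transcript 1 (ENSONIT00000003702, circles) and median level of the 50 cerebellum-enriched transcripts (triangles) in the 6 thalamus-pituitary libraries, in percent of the mean of the cerebellar controls on a logarithmic axis. T2 replicate 1 is the highest for both, at 4.86%, and the circles of the other libraries lie between 0.261% and 1.24%, below their triangles. In the controls this position follows from how the list was chosen.

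Sums of marker lists also moved with T3. Their symbols come from the study's list of hormone-responsive transcripts of these same libraries, so a change of these sums with hormone is not independent evidence. The neuronal list summed to 1387 and 1286 CPM with T2, 1143 and 1203 CPM with T3, and 1311 and 1436 CPM in the controls of the cerebellum, and in the thalamus-pituitary to 1568 and 1540 CPM with T2, 1292 and 1361 CPM with T3, and 1590 and 1728 CPM in the controls. The T3 libraries were the lowest in both regions. Member by member, 5 of 19 tested were higher with T3 than in the controls of the cerebellum and 14 lower. In the thalamus-pituitary 7 of 20 were higher and 13 lower. A list of 9 glial transcripts was lower than in the controls with both hormones in both regions, between 1332 and 1434 CPM in the hormone libraries against 1633 and 1794 CPM in the controls of the cerebellum. A list of 5 red blood cell transcripts took 0.209% to 0.265% of the hormone libraries and 0.397% and 0.502% of the controls in the cerebellum. The SNAP25 sum divided by the sum of the neuronal list was 1.6 and 1.34 with T2, 1 and 1.07 with T3, and 1.23 and 1.67 in the controls of the cerebellum, so its T3 libraries remained the lowest. In the thalamus-pituitary the T3 ratio of 0.762 in replicate 1 lay above the 0.736 of T2 replicate 2, while both T3 ratios were below those of the controls (0.818 and 0.932). In bulk samples fewer neurons and less RNA per neuron cannot be told apart, and the part of these lists in the SNAP25 values was not tested.

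Depth did not follow the level throughout the cerebellum. The shallowest libraries, T2 replicate 1 with 1568851 counts and control replicate 2 with 2408635, had the highest levels of both transcripts. The next in depth, T3 replicate 1 with 3702247 counts and T3 replicate 2 with 4553514, had the lowest. The part of depth in these values was not tested. Over the 6 cerebellar libraries the transcripts varied together (Pearson r = 0.976 on log2 CPM), but not over the 6 thalamus-pituitary libraries (r = -0.12, or -0.445 over 5 without T2 replicate 1). These libraries share scaling and differ in depth and treatment, and the values are given as a description.

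NSF and SNAP23 were at similar levels in both brain regions. NSF had between 27.2 and 37 CPM in the cerebellum and between 23.2 and 31 CPM in the thalamus-pituitary, with a difference of 0.19 ± 0.10 on the log2 scale (adjusted p = 0.145). Its change with T3 over both regions was 0.15 ± 0.11 (adjusted p = 0.585), of the opposite sign to that of transcript 2. SNAP23 had between 8.22 and 15.8 CPM in the cerebellum and between 7.52 and 13.3 CPM in the thalamus-pituitary, and changed by -0.21 ± 0.20 with T3 over both regions (adjusted p = 0.689). In the liver SNAP23 was higher than in the brain, with 21.1 and 21 CPM with T2, 29.9 and 33.3 CPM with T3, and 83.7 and 58.2 CPM in the controls, where both SNAP25 transcripts were nearly absent. With T2 in the liver, SNAP23 fell by 1.60 on the log2 scale (SE 0.36, adjusted p = 0.0339) and NSF rose by 1.41 (SE 0.30, adjusted p = 0.0309), in a comparison that called 21% of 10905 tested transcripts. With T3 in the liver, NSF rose by 1.34 (SE 0.28, adjusted p = 0.0368) and SNAP23 was at -1.18 (SE 0.34, adjusted p = 0.0702), where 13.6% of 11556 were called. The hepatocyte list summed to 48481 and 59477 CPM in the T2 livers and to 77554 and 82802 CPM in the T3 livers, against 159631 and 189414 CPM in the controls, and its part in these values was not tested.

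Of a list of 20 transcripts for SNARE proteins and vesicle fusion, without SNAP25, 0 passed the threshold in any of the 9 hormone comparisons in the brain (19 or 20 tested). DESeq2 called between 0 and 2 of them per comparison, beside 17 to 1213 of all tested transcripts. With T3 over both regions it called BSN and RIMS1, both of the presynaptic active zone, among 1213 of 18230 transcripts called. Their log2 fold changes in edgeR's fit were -0.51 and -0.26 (adjusted p = 0.0994 and 0.14). The adjusted p values of DESeq2 were left as NA for 16 of the 20 in the cerebellum with T3. At an unadjusted p under 0.05 there were 4 of 20 with T3 over both regions, beside 15.8% of all tested transcripts. The list's median log2 fold change there was -0.12, beside -0.00078 for all transcripts. Its symbols come from the study's hormone-responsive transcripts, so it is not a sample of all transcripts. BSN and RIMS1 are also in the neuronal list. The list's sum with T3 was 1180 to 1208 CPM in the cerebellum, against 1340 to 1368 CPM with T2 and 1357 to 1463 CPM in the controls. In the thalamus-pituitary it was 1105 to 1106 CPM, against 1177 to 1221 CPM and 1197 to 1211 CPM. These sums rest largely on abundant members, such as DMXL2 (ENSONIT00000000181) with a median of 489 CPM in the thalamus-pituitary. Member by member, 10 of 19 tested were higher with T3 than in the controls there and 9 lower (median log2 fold change 0.03). In the cerebellum 8 of 20 were higher and 12 lower (median -0.13). Between cerebellum and thalamus-pituitary, 3 of the 20 were higher and 3 lower, beside 39.5% of all transcripts called, and the list's median was 0.08.

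Those 6 include 2 more symbols whose transcripts were unequal between the regions. STXBP5, or tomosyn, which binds syntaxin and holds back fusion, had a transcript (ENSONIT00000000827) with a median of 67.9 CPM in the cerebellum and 23.5 CPM in the thalamus-pituitary, a log2 difference of 1.31 ± 0.18 (adjusted p = 3.89e-05), and another (ENSONIT00000016877) with 6.4 and 26.5 CPM, a difference of -1.99 ± 0.19 (adjusted p = 9.25e-06). BNIP1, a SNARE of the endoplasmic reticulum, had a transcript (ENSONIT00000010880) that was higher in the cerebellum by 0.72 ± 0.20 (adjusted p = 0.00937) and another (ENSONIT00000022309) with a difference of -0.73 ± 0.19 (adjusted p = 0.00765). The remaining ones were RAB26, a small GTPase of vesicles, at -1.04 ± 0.20 (adjusted p = 0.000862), and BSN, the scaffold bassoon of the presynaptic active zone, at 0.38 ± 0.12 (adjusted p = 0.0246).

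Among transcripts with a symbol and a mean of at least 10 CPM, those with the profile most like that of transcript 1 over the 12 brain libraries were ANKIB1 (r = 0.976), BAZ2B, a bromodomain protein (r = 0.976), and FAT2 (r = 0.975), at positions 46, 47 and 56 of 10183 transcripts. These values rest on the difference between the regions. Within the cerebellum r was -0.287 for ANKIB1, 0.981 for BAZ2B and 0.59 for FAT2, and within the thalamus-pituitary 0.839, 0.724 and 0.849 (6 libraries each), or 0.354, 0.464 and 0.822 over 5 libraries without T2 replicate 1. For transcript 2 they were APP, the amyloid precursor protein (r = 0.96), MARCKSL1, a relative of the membrane and actin protein MARCKS (r = 0.954), and DBN1, the actin-binding drebrin of dendritic spines (r = 0.944), at positions 2, 3 and 10. Within the regions, r for these was between 0.837 and 0.925 in the cerebellum and between 0.955 and 0.976 in the thalamus-pituitary. These are the same libraries by which the 3 were chosen, so the values are not separate evidence of likeness. Symbols also come from the study's hormone-responsive transcripts of these libraries, so transcripts with a symbol are not a sample of all transcripts. The share of other transcripts with such r within a region was not counted. APP and MARCKSL1 were scarcer in the liver than in the brain, at 22.5 and 1.19 CPM, while DBN1 was not, with means of 94 CPM in the cerebellum, 164 CPM in the thalamus-pituitary and 246 CPM in the liver.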

How the data were processed

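RNA-seq libraries of cerebellum, thalamus-pituitary and liver were made from T2-treated, T3-treated and control fish (2 libraries per group, 18 in all). The authors checked reads with FastQC, cleaned them with their own scripts, mapped them with Bowtie 1.1.2 to the Ensembl coding sequences of Orenil1.0 and quantified them with eXpress. They deposited effective counts, which are estimated counts adjusted by eXpress for fragment length, without normalization between libraries. Their tables of fold changes and p-values per hormone and tissue were not used. Whether counting used strand is not given in the sources used here.

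Counts were rounded, filtered with filterByExpr (minimum count 10, total 15), scaled by TMM and tested across all transcripts with edgeR 4.0.16 (quasi-likelihood, R 4.3.3), Benjamini-Hochberg adjusted, threshold 0.05. The log2 ratio of the transcripts used a pseudocount of 0.5 and an exact permutation test (SciPy 1.17.1). The most similar transcripts were found on log2 CPM with a prior count of 2. DESeq2 1.42.0, the exact test, other scalings and filters, a replicate block and leaving out each library were alternatives, and the tests were tested on simulated data. Members, gene lists, named genes (both transcripts, NSF, SNAP23, list members past the threshold in a brain comparison and the 3 most similar per transcript) and alternatives were chosen with earlier results of these data known.

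Symbols came from a supplementary list that pairs 1646 transcripts with names. A RefSeq gene table (assembly O_niloticus_UMD_NMBU) lists 42644 genes with no Ensembl identifier, so neither transcript could be matched to it, and positions and sequences were not used here. With 2 samples per group, p-values of the fits rest on the spread between these samples together with that estimated over all tested transcripts.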

Additional observations from a re-analysis of the deposited data

Results flagged for a closer look

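Transcript 1 (ENSONIT00000003702) lay on opposite sides of the controls with T3 in the brain regions. Both cerebellar T3 libraries were below both controls, at 556 and 632 CPM against 816 and 1358 CPM. Both thalamus-pituitary T3 libraries were above both controls, at 9.85 and 13.4 CPM against 4.68 and 7.22 CPM. The result was flagged for this position. Taken singly, its parts were held by 21.5% and 18.9% of the tested transcripts, and the share that held both was not counted. In the interaction fit, 4.28% of the tested transcripts had an unadjusted p under 0.05. The response in the cerebellum minus that in the thalamus-pituitary was -1.83 on the log2 scale in edgeR's interaction fit (unadjusted p = 0.00297, adjusted p = 1 over 17771 transcripts, and between 0.435 and 1 over 5 alternatives), so the difference failed the correction. The median of the 50 cerebellum-enriched transcripts was also higher in these thalamus-pituitary T3 libraries, at 1.88% and 2.44% of the cerebellar control level against 1.11% and 1.16% in the controls. Its part in the result was not tested.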

How the results depend on the processing

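The sign and side of the threshold held in 178 of 192 alternatives other than leaving out a library, over 26 results of the fits, and in 203 of 224 fits without 1 library. With DESeq2, transcript 2 passed the threshold for T3 in the cerebellum (-0.57) and thalamus-pituitary (-0.63) and for T2 against T3 in the thalamus-pituitary (0.33) and over both regions (0.40), and transcript 1 for T2 against T3 in the cerebellum (0.91). In the quasi-likelihood test on unfiltered counts, T3 in the cerebellum passed for transcript 1 (-0.86) and transcript 2 (-0.56). So did T2 against T3 in the cerebellum for transcript 1 (0.91). The exact test called transcript 1 there, with the filter (0.91) and without (0.91), and transcript 2 for T3 in the thalamus-pituitary (-0.63). Between cerebellum and thalamus-pituitary, transcript 2 passed with RLE factors (-0.67), the library total (-0.62) and the 12 brain libraries alone (-0.59, chosen after seeing the data). The balance in control libraries only was 8.15, where an exact permutation test of 2 against 2 libraries cannot give less than p = 0.333. The cause of these changes was not tested.

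Same-numbered libraries within a tissue deviated together with r between -0.167 and 0.148, and those of the same treatment in cerebellum and thalamus-pituitary with 0.085 for T2, 0.00542 for T3 and 0.229 for the controls. Not every pair was over 0.1, so the numbers were not taken as pairs. With a replicate block, transcript 2 lost its call for T3 over both brain regions (-0.60, adjusted p = 0.055, 58 transcripts called against 171), and the block changed no other call of either transcript. Crossing the numbers for T2 in the cerebellum, chosen after seeing the data, left 0 transcripts called, as with the block and without it.

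Leaving out 1 library gave these ranges where a sign or call changed. Transcript 1 ranged from -0.29 to 0.46 for T2 in the cerebellum, -1.06 to 3.16 for T2 and -2.05 to 2.19 for T2 against T3 in the thalamus-pituitary, -0.59 to 0.10 for T3 over both regions, and -3.11 to 1.09 for the difference between regions in the T2 response. Transcript 2 ranged from -0.30 to 0.11 for T2 in the cerebellum, -0.69 to -0.53 for T3 over both regions, -0.13 to 0.26 for the difference in the T3 response and -0.63 to -0.51 between the regions. Transcripts called by the quasi-likelihood test, the exact test and DESeq2 numbered 0, 47 and 17 for T2 in the cerebellum, 0, 185 and 92 for T3 and 2, 115 and 54 for T2 against T3. In the thalamus-pituitary they numbered 0, 72 and 20 for T2, 1, 127 and 63 for T3, and 9, 94 and 58 for T2 against T3. Without the filter the quasi-likelihood test called 156 for T2 and 106 for T2 against T3 in the cerebellum, and for T3 against control there 101 as higher, which was 52.1% of its calls. In the thalamus-pituitary it called 0 for T2, 20 for T3 and 18 for T2 against T3. Over both regions the quasi-likelihood test called 6 for T2, 171 for T3 and 0 for T2 against T3, against 268, 1213 and 170 by DESeq2, and 10 for T2 and 3 for T2 against T3 without the filter. For T3 over both regions the library total gave 58.3% of calls higher with T3 against 36.3% with TMM. Between cerebellum and thalamus-pituitary the controls alone gave 2619 calls (37.6% higher in the cerebellum) against 7585 (47.9%), and between brain and liver the share higher in the brain was 84.1% with the library total against 61.1%.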
